A study of Mus musculus with 6 samples.

Results

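The 41 genes described here encode the proteins that mark and fire replication origins, copy DNA at the fork, supply it with deoxynucleotides and place histones on the new strands. They were listed by name with earlier results of these data known, and sorted into 9 steps of replication. Pcna, Fen1, Tk1 and Chaf1b are also in the paper's table of cell cycle and replication genes raised on these arrays. Each member was measured by the brightest of the probe sets annotated to that gene alone, taken as the highest mean over the 6 arrays. All 41 had such a probe set, out of 18193 genes measured in the same way. Whole uteri of pregnant mice were collected at 3.5 dpc, where the morning of the vaginal plug counts as 0.5 dpc, and their RNA was put on Affymetrix mouse arrays, 3 for each genotype. The Arid1a d/d females were Pgr cre/+ Arid1a f/f animals, in which Cre is made from the progesterone receptor locus. Cells in which that locus was never active keep an intact Arid1a, which encodes part of the SWI/SNF chromatin remodeler. The Arid1a f/f controls carried the floxed alleles without Cre. The genotypes therefore also differed at the Pgr locus, and effects of Cre or of the lost Pgr copy cannot be told apart here from those of Arid1a. All females were mated with C57BL/6 males. Their age on these arrays is not stated, nor is it stated that each array holds a different animal. The p-values then measure only the spread between these samples, which may be technical.

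Before a cell copies its genome, the origin recognition complex marks the start sites, and the MCM helicase is loaded there as an inactive ring. In S phase the kinase made of CDC7 and DBF4, together with TOPBP1, CDC45 and the GINS complex, turns this ring into a moving helicase, after which primase and polymerase alpha start each strand and polymerases delta and epsilon extend them on the PCNA clamp. Ribonucleotide reductase and thymidine kinase supply the building blocks, and many of these genes are transcribed mainly as cells enter S phase. In the mouse uterus at this stage of pregnancy the luminal epithelium normally stops dividing while the stroma proliferates.

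Arid1a itself read 83.6, 86.8 and 103.9 on the Arid1a f/f arrays and 51.9, 51.9 and 58.2 on the Arid1a d/d arrays, a log2 fold change of -0.76 ± 0.12 (SE, adjusted p = 0.012). Values are linear intensities in arbitrary units, and the median over all probe sets and arrays was 3.12. The sources used here do not place these probes inside or outside the deleted part of the gene. The array medians ran from 3.05 to 3.17, and 0 of 9 measured reference genes passed the test with limma, with 1 at an unadjusted p under 0.05.

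Most of the replication genes were higher in the Arid1a d/d uteri. With limma, and p-values adjusted by Benjamini-Hochberg over all probe sets, 22 of the 41 members rose and 0 fell at an adjusted p under 0.05, where 3.37% of all genes rose and 4.06% fell. At an unadjusted p under 0.05, 36 members were higher and 0 lower, against 11.4% and 13.5% of all genes. All 3 Arid1a d/d arrays lay above all 3 Arid1a f/f arrays for 34 members, against 13.4% of all genes, and 25 members were at least 1.5-fold higher, against 3.89%. The median log2 fold change was 0.69 over the members and -0.02 over all genes, and it was above 0 for 40 members and for 46.5% of all genes. Single members ranged from -0.16 for Orc5 to 1.24 for Pole. Because whole uteri were measured, more cells in S phase and more RNA per cell cannot be told apart.

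**Figure D1:**
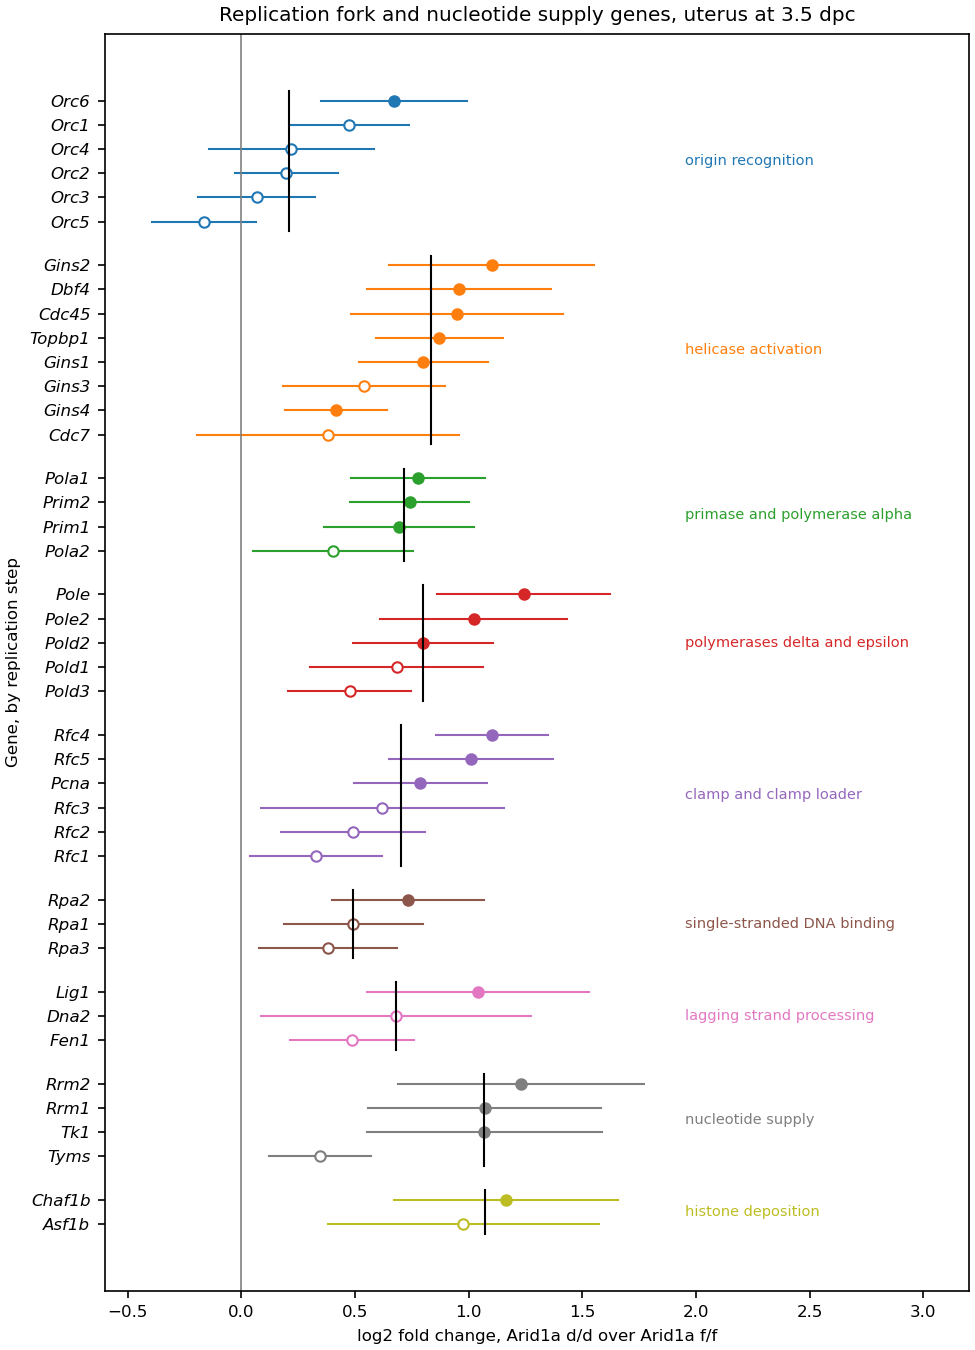
The log2 fold change of each of the 41 members, Arid1a d/d over Arid1a f/f (horizontal axis), with its 95% confidence interval from limma, 3 arrays per genotype. Filled points passed the adjusted p of 0.05, open points did not, and black lines are step medians, which run from 0.21 in origin recognition to 1.07 in nucleotide supply and in histone deposition.

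The calls depended on single arrays more than the size of the shift did. The count of members that rose was 21 without Arid1a f/f replicate 1, 4 without f/f replicate 2, 7 without f/f replicate 3, 22 without Arid1a d/d replicate 1, 10 without d/d replicate 2 and 8 without d/d replicate 3. The share of all genes that rose moved too, to 1.76%, 0.764%, 0.951%, 3.06%, 1.68% and 1.65% in the same order. The median log2 fold change of the members stayed between 0.63 and 0.84 in these fits. Topbp1, Pole, Rfc4 and Rfc5 were the 4 members that kept the call whichever array was left out, and Gins1, Pola1 and Prim2 lost it only without f/f replicate 2. Each of the other calls was lost without f/f replicate 2 and, in a separate fit, without f/f replicate 3.

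The promoters of the members are shown because the E2F factors, which act at the entry into S phase, are known to bind many genes of this kind through the letters TTTCCCGC, TTTGGCGC or TTTCGCGC. Of the 41 members, 35 have an entry in the RefSeq promoter table (build GRCm38.p6), which covers 250 bases before and 50 bases after each start. Those letters, searched on both strands, stood in 10 of the 43 windows of these members (23.3%) and in 1.84% of all 32851 windows. They were in Orc1, Orc3, Gins3, Topbp1, Pola1, Pold1, Pold3, Pole2, Rfc3 and Lig1. They were in 4 of the 17 members with an entry that rose and in 6 of the 18 that did not pass. The CCAAT box, CCAAT, stood in 44.2% of member windows and 37.4% of all, the CHR element, TTTGAA, in 18.6% and 17.9%, and the GC box, GGGCGG, which can share letters with an E2F match, in 72.1% and 35.7%. The windows below hold the 150 bases before the start, 5′ to 3′ along the gene, with matches to the E2F letters and to CCAAT on either strand in capitals. Topbp1 and Pola1 rose, Orc3 holds E2F letters and had a log2 fold change of 0.07, and Rrm2 rose and holds CCAAT but no E2F match. A match is a description of the letters and not a shown binding site.
Topbp1, chr9:103305177-103305326, forward strand: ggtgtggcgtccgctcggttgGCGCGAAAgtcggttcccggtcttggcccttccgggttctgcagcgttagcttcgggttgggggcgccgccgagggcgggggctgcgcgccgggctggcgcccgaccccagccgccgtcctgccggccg
Pola1, chrX:93632156-93632305, reverse strand: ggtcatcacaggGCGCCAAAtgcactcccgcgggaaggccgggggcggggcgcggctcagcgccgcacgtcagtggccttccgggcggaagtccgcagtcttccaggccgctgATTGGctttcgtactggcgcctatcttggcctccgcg
Orc3, chr4:34614943-34615092, reverse strand: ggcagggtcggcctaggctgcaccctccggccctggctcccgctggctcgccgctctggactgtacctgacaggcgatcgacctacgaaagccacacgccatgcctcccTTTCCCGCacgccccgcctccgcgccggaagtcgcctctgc
Rrm2, chr12:24708104-24708253, forward strand: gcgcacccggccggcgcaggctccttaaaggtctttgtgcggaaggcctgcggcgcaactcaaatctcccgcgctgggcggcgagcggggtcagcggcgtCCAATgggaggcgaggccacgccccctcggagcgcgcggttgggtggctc

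Origin recognition had the smallest median log2 fold change of the 9 steps. Of the 6 genes of the complex that marks origins, 1 rose, and the median log2 fold change was 0.21. Orc6, the smallest and most loosely attached subunit, read 21.4, 17.2 and 20.4 on the Arid1a f/f arrays and 26.6, 36.7 and 31.0 on the Arid1a d/d arrays, and rose by a log2 fold change of 0.67 ± 0.14 (SE, adjusted p = 0.0338). Orc1, the subunit whose protein is made and lost with each cell cycle in mammals, read 3.80, 3.13 and 3.05 in Arid1a f/f and 4.86, 4.61 and 4.33 in Arid1a d/d. The groups did not overlap, but the log2 fold change of 0.47 ± 0.12 (SE) missed the threshold (adjusted p = 0.0555), and these readings are near the median of all probe sets. Orc3, a core subunit, read 26.5, 25.2 and 26.5 against 31.2, 24.6 and 26.5, with overlapping groups and a log2 fold change of 0.07 ± 0.11 (SE, adjusted p = 0.833). The other core subunits had log2 fold changes of 0.20 for Orc2, 0.22 for Orc4 and -0.16 for Orc5, at adjusted p of 0.346, 0.547 and 0.455. Orc5 was the only member with an estimate below 0. Set against the mean of Orc2 to Orc5 and against the Arid1a f/f mean, Orc1 was at 0.24, -0.03 and -0.21 in log2 units on the f/f arrays and at 0.48, 0.46 and 0.24 on the d/d arrays, so that the groups were separated by a narrow margin.

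The genes that fire the loaded helicase had 6 of 8 members higher and a median log2 fold change of 0.84. Gins2, a subunit of the GINS complex that travels with the helicase, read 13.3, 7.99 and 9.43 in Arid1a f/f and 17.6, 25.1 and 22.4 in Arid1a d/d, and rose by 1.10 ± 0.20 on the log2 scale (SE, adjusted p = 0.0202). Dbf4, the activating partner of the CDC7 kinase, read 19.5, 13.9 and 15.2 against 25.5, 38.9 and 30.4, and rose by 0.96 ± 0.18 (adjusted p = 0.0224). In both genes the lowest d/d array, replicate 1, lay above the highest f/f array. Cdc7, the kinase itself, read 26.5, 18.2 and 32.6 against 26.6, 28.2 and 46.1, with overlapping groups and a log2 fold change of 0.38 ± 0.25 (SE, adjusted p = 0.502). The difference of Dbf4 over Cdc7 relative to the f/f mean was 0.58 ± 0.53 (SD, n = 3) in d/d with an f/f SD of 0.40, and the groups overlapped. Topbp1, the scaffold that brings the activators to the helicase, rose by 0.87 (adjusted p = 0.00907), Cdc45, the other helicase cofactor, by 0.95 (adjusted p = 0.0369), Gins1 by 0.80 (adjusted p = 0.0126) and Gins4 by 0.42 (adjusted p = 0.0488). The remaining GINS subunit, Gins3, was at 0.54 (adjusted p = 0.0963). Gins4 lost its call whichever array was left out.

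Primase and polymerase alpha, which lay down the primer of each new strand, had 3 of 4 members higher and a median log2 fold change of 0.72. Pola1, the catalytic subunit of polymerase alpha, read 17.0, 13.9 and 18.0 in Arid1a f/f and 26.1, 26.2 and 31.4 in Arid1a d/d, and rose by 0.78 ± 0.13 (SE, adjusted p = 0.0154). Prim2, the large primase subunit, read 10.2, 9.50 and 8.04 against 14.7, 16.1 and 15.4, and rose by 0.74 ± 0.12 (SE, adjusted p = 0.0124). The d/d arrays of Prim2 lay close together, and each was above every f/f array. Pola2, the accessory subunit of polymerase alpha, read 37.9, 24.7 and 30.3 against 41.7, 37.0 and 42.4, where the lowest d/d array fell below the highest f/f array, and its log2 fold change was 0.40 ± 0.16 (SE, adjusted p = 0.204). Prim1, the catalytic primase subunit, rose by 0.69 (adjusted p = 0.0333).

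Of the polymerases that extend the strands, 3 of 5 members rose, with a median log2 fold change of 0.80. Pole, the catalytic subunit of polymerase epsilon, which is known for leading-strand synthesis, read 12.4, 7.71 and 8.44 in Arid1a f/f and 21.9, 21.5 and 22.6 in Arid1a d/d. It rose by 1.24 ± 0.17 (SE, adjusted p = 0.00762), the largest log2 fold change among the 41 brightest probe sets. Pole2, its second subunit, read 18.5, 11.7 and 17.0 against 26.6, 35.2 and 32.8, and rose by 1.02 ± 0.18 (SE, adjusted p = 0.0190). Of polymerase delta, known for the lagging strand, Pold2, an accessory subunit, rose by 0.80 (adjusted p = 0.0160), Pold1, the catalytic subunit, was at 0.68 (adjusted p = 0.0550), and Pold3 read 27.5, 24.7 and 30.6 against 34.7, 41.4 and 39.1, at 0.48 ± 0.12 (SE, adjusted p = 0.0593). Relative to the f/f mean, Pole exceeded Pold1 by 0.70, 0.51 and 0.47 log2 units on the d/d arrays, a mean of 0.56 ± 0.12 (SD, n = 3), and by 0.03, -0.03 and -0.002 on the f/f arrays. The groups did not overlap in this difference, which was given no test and holds for these catalytic subunits only. Both probe sets can detect several transcripts, and the other, dimmer Pold1 probe set was at 0.31 (adjusted p = 0.111). The small subunits of both enzymes are no members and were looked at after their values were seen. Pole3 and Pole4 of polymerase epsilon were at 0.44 (adjusted p = 0.0801) and 0.35 (adjusted p = 0.0772), below the values of Pold1 to Pold3, and Pold4 of polymerase delta was at -0.68 (adjusted p = 0.169).

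The sliding clamp and its loader had 3 of 6 members higher and a median log2 fold change of 0.70. Pcna, the clamp that holds polymerases on DNA, rose by 0.79 (adjusted p = 0.0143), from 241.8 ± 36.9 in Arid1a f/f to 415.0 ± 32.3 in Arid1a d/d (mean ± SD, n = 3), and lost the call without f/f replicate 2 or f/f replicate 3. Rfc4, a small loader subunit, read 12.4, 11.4 and 10.2 against 23.7, 26.0 and 23.2, and rose by 1.10 ± 0.11 (SE, adjusted p = 0.00261), the smallest adjusted p of all members. Rfc5, another small subunit, read 30.4, 19.5 and 26.8 against 48.5, 51.3 and 52.3, and rose by 1.01 ± 0.16 (SE, adjusted p = 0.0125). In both the gap between the genotypes was wider than the spread within either. Rfc1, the large subunit, read 41.8, 32.0 and 41.4 against 44.8, 47.7 and 51.2, with groups that did not overlap and a log2 fold change of 0.33 ± 0.13 (SE, adjusted p = 0.211). Rfc2 was at 0.49 (adjusted p = 0.0895) and Rfc3 at 0.62 (adjusted p = 0.197), both higher on every d/d array.

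RPA, the trimer that coats single-stranded DNA, had 1 of 3 members higher and a median log2 fold change of 0.49. Rpa2, the middle subunit, read 31.0, 21.6 and 22.6 in Arid1a f/f and 37.9, 42.3 and 43.2 in Arid1a d/d, and rose by 0.73 ± 0.15 (SE, adjusted p = 0.0292). Rpa1, the large subunit that makes most of the DNA contact, read 191.7, 144.7 and 156.2 against 203.4, 244.2 and 243.1, a log2 fold change of 0.49 ± 0.13 (SE, adjusted p = 0.0782). Rpa3, the small subunit, read 51.7, 41.0 and 46.3 against 51.4, 63.5 and 66.6, at 0.38 ± 0.13 (SE, adjusted p = 0.163). Rpa3 alone of the trimer had overlapping groups, through d/d replicate 1.

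Among the genes that finish Okazaki fragments, 1 of 3 rose, with a median log2 fold change of 0.68. Lig1, the ligase that seals the fragments, read 60.5, 36.2 and 37.4 in Arid1a f/f and 71.7, 103.7 and 96.0 in Arid1a d/d, and rose by 1.04 ± 0.21 (SE, adjusted p = 0.0313). Dna2, a nuclease that trims long flaps, read 12.7, 6.48 and 10.2 against 11.2, 19.2 and 15.9, with overlapping groups and a log2 fold change of 0.68 ± 0.26 (SE, adjusted p = 0.204). Fen1, the main flap nuclease, read 104.8, 84.2 and 90.1 against 123.8, 144.1 and 122.9. Its groups did not overlap, and its log2 fold change of 0.49 ± 0.12 (SE) missed the threshold (adjusted p = 0.0561).

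The nucleotide supply genes had 3 of 4 members higher and a median log2 fold change of 1.07. Rrm2, the subunit of ribonucleotide reductase that is made in S phase, read 83.1, 45.8 and 43.3 in Arid1a f/f and 107.6, 140.8 and 140.6 in Arid1a d/d, and rose by 1.23 ± 0.24 (SE, adjusted p = 0.0255). Rrm1, its large partner, read 66.2, 40.1 and 39.8 against 79.7, 125.3 and 97.8, and rose by 1.07 ± 0.23 (SE, adjusted p = 0.0338). In both, f/f replicate 1 was the highest control and d/d replicate 1 the lowest mutant, and the difference between the partners overlapped between genotypes. Tk1, the cytosolic thymidine kinase, rose by 1.07 (adjusted p = 0.0343). Tyms, which makes thymidylate, read 2.81, 2.63 and 2.83 against 3.64, 3.23 and 3.64, at 0.34 ± 0.10 (SE, adjusted p = 0.0925). Its f/f readings lie below the median of all probe sets, where differences are hard to measure.

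Both histone deposition members were higher on every d/d array, and 1 of the 2 passed. Chaf1b, a subunit of the CAF-1 complex that places histones behind the fork, read 5.85, 3.03 and 4.03 in Arid1a f/f and 8.80, 10.7 and 8.53 in Arid1a d/d, and rose by 1.16 ± 0.22 (SE, adjusted p = 0.0226). Asf1b, the histone chaperone that feeds CAF-1, read 16.6, 11.5 and 10.7 against 17.6, 36.9 and 24.0, a log2 fold change of 0.98 ± 0.26 (SE, adjusted p = 0.0761). The d/d arrays of Asf1b were spread widely, with replicate 1 close to the highest control.

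The members varied together from array to array within each genotype. Of the f/f arrays, replicate 1 gave the highest value for 31 of 41 members (34.4% of all genes) and replicate 2 the lowest for 30 (36.3% of all genes). Of the d/d arrays, replicate 1 gave the lowest value for 28 (39.9% of all genes). The median member stood at 0.23, -0.17 and -0.05 log2 units on the f/f arrays relative to their mean, and at 0.53, 0.81 and 0.77 on the d/d arrays. A member typically ranged over 0.45 log2 units among the controls, and the median gap from its highest f/f array to its lowest d/d array was 0.24.

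**Figure D2:**
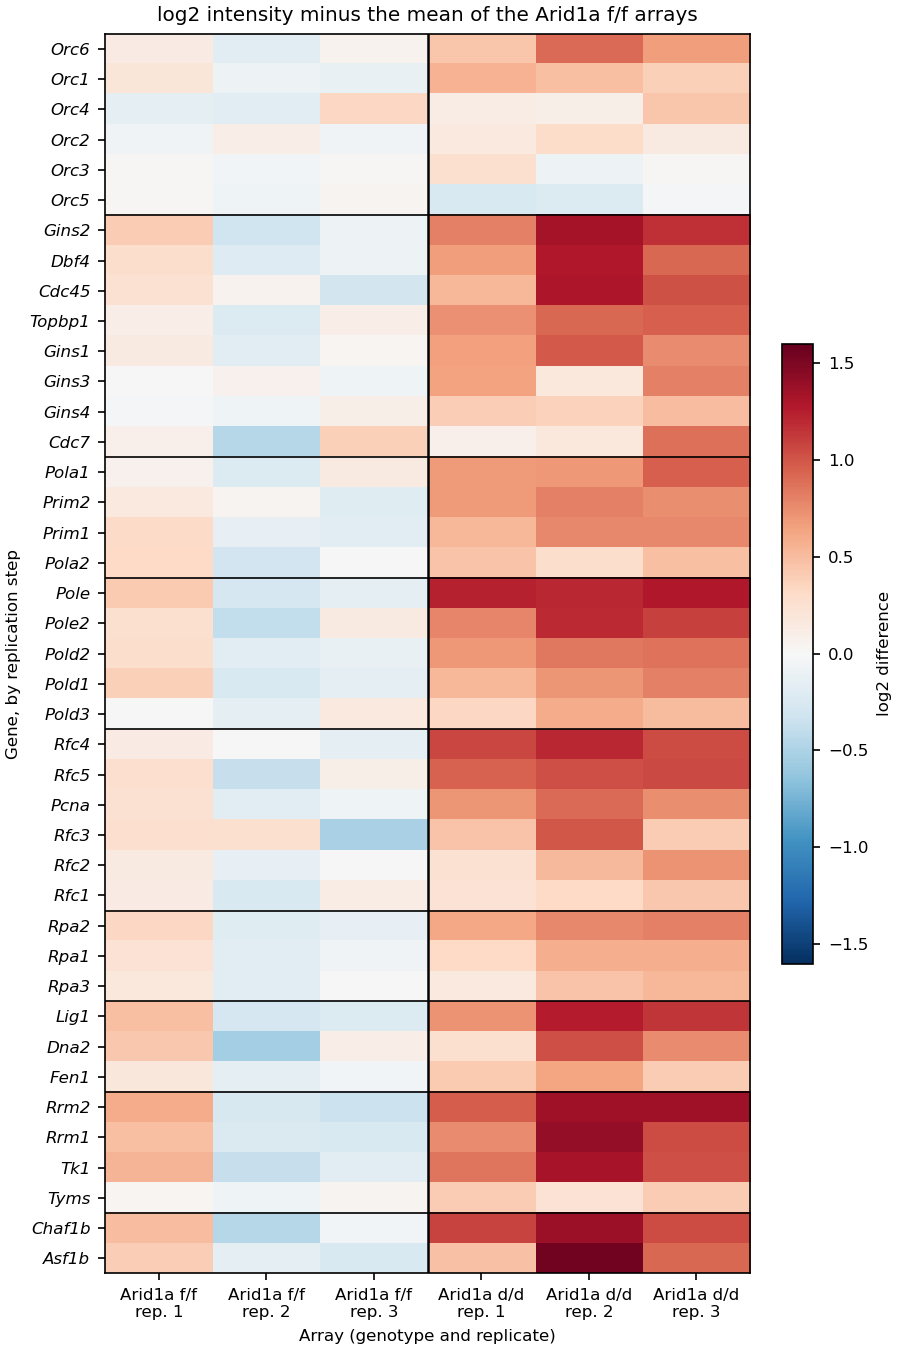
The log2 intensity of the 41 members (rows, grouped by replication step) on the 6 arrays (columns), relative to the mean of the Arid1a f/f arrays, with red for higher and blue for lower. Most rows are red on all 3 Arid1a d/d arrays, palest on replicate 1, while Orc3, Orc4 and Orc5 show little difference between genotypes.

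Markers of uterine cell types also differed between the genotypes. Of 13 measured epithelial markers 2 rose, their median log2 fold change was 0.77, and their summed intensity was 1188 to 1270 in Arid1a f/f and 1258 to 2524 in Arid1a d/d. By array the epithelial median was -0.02, 0.09 and -0.03 in f/f and 0.20, 1.12 and 0.61 in d/d. Replicate 1 was the lowest d/d array here as for the members, whereas f/f replicate 2 was highest here and lowest for the members. Of 10 endothelial markers 8 fell, with a median of -0.86 and sums of 762 to 805 against 504 to 784. Much of these sums came from Cd34, which read 581 on d/d replicate 1, where the sum was 784. The 2 markers not called were Cd34 (0.12, adjusted p = 0.792) and Flt1 (-0.28, adjusted p = 0.637). The stroma (2 of 10 lower, median -0.38), smooth muscle (1 of 8 lower, median -0.15) and leukocytes (2 of 9 lower, median -0.30) moved less. Every marker of these 5 lists had a group mean above 3.12, except Itgam and Ncr1 among the leukocyte markers. The part of these markers in the values of the members was not tested. Free embryos can be present in the uterus at this stage, and 7 of the 9 markers of the preimplantation embryo, among them Pou5f1 and Nanog, had both group means below 3.12, with 0 of 9 past the limma test and 0 at an unadjusted p under 0.05.

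Probe sets of a member did not always give the same result. The 41 members had 85 probe sets, and 30 members had several. With limma 32 of the 85 rose and 0 fell, where 1090 of all 45037 probe sets rose and 1057 fell. The 16 probe sets with a mean below 3.12 included 0 calls and had a median log2 fold change of 0.01, whereas the 69 at or above it had a median of 0.67. Of the 21 members with at least 2 probe sets at or above 3.12, 13 had the same call on all of them. Fen1 (1.07, adjusted p = 0.0309), Orc4 (0.51, adjusted p = 0.0436), Pold3 (0.81, adjusted p = 0.00484) and Rfc3 (0.98, adjusted p = 0.0205) passed on a dimmer probe set only. This takes the members called on any probe set to 26. Genes with several probe sets have more chances to pass, and the share of all genes called on any probe set is not given, so the count of 26 lacks that background. For Orc4 a further probe set gave -0.001, and for Pold3 a further probe set gave 0.04. Rrm2 rose on each of its 3 probe sets above the median, by 1.23, 1.63 and 0.60 log2 units. Gins2, Prim1, Rfc4 and Rpa2 also rose on a second probe set, by 1.21, 0.83, 1.22 and 0.76. Cdc45, Prim2, Rrm1 and Topbp1 rose on the brightest probe set, while others at or above 3.12 did not pass.

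**Figure D3:**
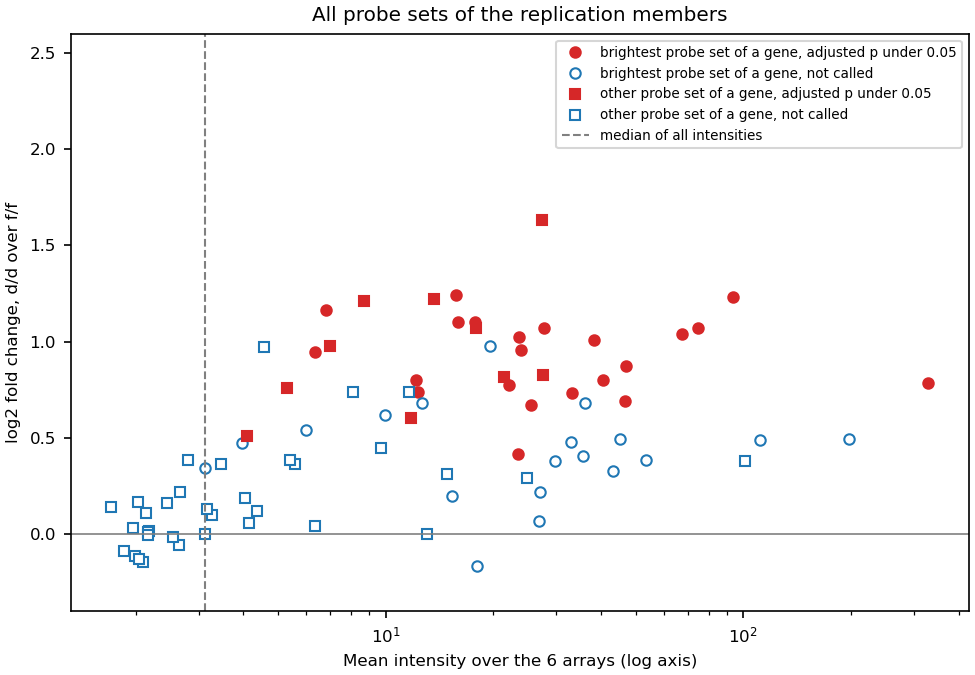
The log2 fold change (vertical axis, Arid1a d/d over Arid1a f/f) of the 85 probe sets of the members against their mean intensity over the 6 arrays (log axis). Red symbols passed the adjusted p of 0.05, and all 32 of them lie to the right of the dashed line at the median intensity of 3.12.

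Genes of the same pathways outside the 41 were measured for comparison. Of 53 other fork, nucleotide and histone chaperone genes, 21 rose and 1 fell, where 3.37% of all genes rose and 4.06% fell. Their median log2 fold change was 0.41. Of the 6 helicase subunits Mcm2 to Mcm7, 5 rose, with a median of 0.99. The count of 21 was 14, 5 and 9 without f/f replicate 1, 2 and 3 in turn, and 14, 10 and 8 without d/d replicate 1, 2 and 3. The count of 1 that fell was 2 without d/d replicate 1 and 0 without any other array. On probe sets of a single transcript, 11 of the 46 genes that could be measured rose and 0 fell. The share of all genes that rose in this fit is not given. At the fork, 7 of 19 rose. These included Dscc1, a subunit of an alternative clamp loader, at 1.39 (adjusted p = 0.00532), Wdhd1, which ties polymerase alpha to the helicase, at 1.06 (adjusted p = 0.0371), Tipin, a fork protection factor, at 1.02 (adjusted p = 0.00623), and Top2a, the topoisomerase that untangles copied DNA, at 0.73 (adjusted p = 0.0436). The Dscc1 readings in Arid1a f/f, 3.56, 2.25 and 2.41, lay around the median of all probe sets. Of the histone chaperones, 2 of 6 rose, Nasp, which carries histone H3 and H4, by 0.91 (adjusted p = 0.0160), and Hat1, which acetylates new histone H4, by 0.86 (adjusted p = 0.00824). Dscc1, Tipin and Hat1 kept the call whichever array was left out, whereas Wdhd1, Top2a and Nasp each lost it without f/f replicate 2 and without at least 1 other array.

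Beyond the 4 nucleotide supply members, 12 of 28 genes of nucleotide metabolism rose and 1 fell, against 3.37% and 4.06% of all genes. Their median log2 fold change was 0.37. Dck, the cytosolic deoxycytidine kinase, read 38.5, 25.6 and 30.4 in Arid1a f/f and 59.2, 62.0 and 63.0 in Arid1a d/d, and rose by 0.98 (adjusted p = 0.0107). Dut, which removes dUTP and so keeps uracil out of DNA, rose by 0.96 (adjusted p = 0.0116), Umps, of pyrimidine synthesis, by 0.81 (adjusted p = 0.00635), and Dctd, the dCMP deaminase, by 0.74 (adjusted p = 0.0410). Dck and Umps kept the call whichever array was left out, Dut lost it without f/f replicate 2, and Dctd lost it whichever array was left out. A count of 1 in 28 is near the share of all genes that fell. The gene that fell was Tk2, the mitochondrial counterpart of the member Tk1. Tk2 read 12.3, 8.85 and 9.92 in Arid1a f/f and 7.18, 6.11 and 6.29 in Arid1a d/d, a log2 fold change of -0.66 ± 0.14 (SE, adjusted p = 0.0333), with no overlap between the groups, whereas Tk1 read 25.7, 13.7 and 15.5 against 31.8, 44.0 and 36.0. The call of Tk2 was lost without any f/f array in turn and without d/d replicate 2 or 3, with adjusted p of 0.0541 to 0.102, and its probe set can detect several transcripts. The same holds for the brightest probe sets of the members Rrm2, Pold1, Fen1, Pole, Gins2, Orc4, Cdc7 and Rpa1. Dguok, the mitochondrial deoxyguanosine kinase, and Rrm2b, the reductase subunit that serves cells outside S phase, were looked at after their values were seen. Dguok was at -0.29 (adjusted p = 0.383) and Rrm2b at -0.02 (95% confidence interval -0.32 to 0.28, adjusted p = 0.965), beside 1.23 for its S-phase counterpart Rrm2.

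**Figure D4:**
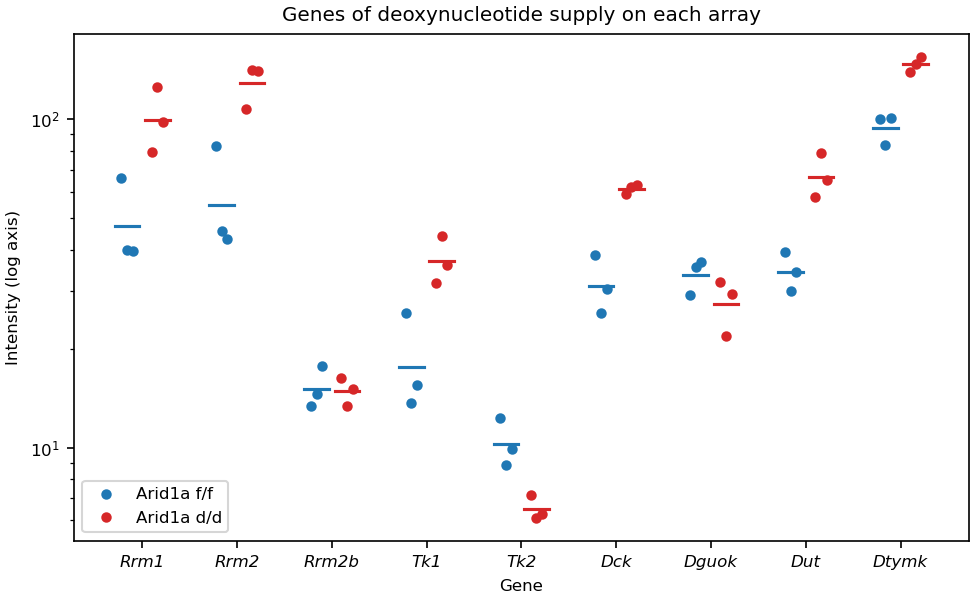
Intensity (log axis) of 9 genes of deoxynucleotide supply on each array, in Arid1a f/f (blue) and Arid1a d/d (red), with bars at the geometric mean of 3 arrays. The 3 Arid1a d/d arrays lie above all controls for Rrm1, Rrm2, Tk1, Dck, Dut and Dtymk, below all controls for Tk2, and overlap them for Rrm2b and Dguok; heights are not comparable between genes.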

How the data were processed

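RNA from whole uteri was hybridized to Affymetrix mouse arrays, and per their methods the authors turned the scans into intensity values by RMA with global scaling. The deposited intensities are linear, so log2 was taken first, and all 45037 probe sets entered the fit. Detection calls were not used. RMA fits each probe set across arrays and compresses differences near background. Names came from the platform annotation, and Entrez IDs brought the symbols up to the GRCm38.p6 gene table. Of these, 34945 name 1 gene, 932 name several and 9160 are unnamed here. Each gene was read on its brightest probe set.

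Arid1a d/d and Arid1a f/f, 3 arrays each, were grouped by the labels and compared by two-sided tests with lmFit and eBayes of limma 3.58.1 (R 4.3.3), p-values adjusted by Benjamini-Hochberg across the whole array and a threshold of 0.05. On simulated data with this design, 52 of 100 probe sets given a log2 change of 1.0 were called, against 0 of 100 given 0.5. Only these probe sets were changed, drawn at random, whereas on the real arrays 1090 probe sets rose and 1057 fell. With fewer true changes the adjusted threshold is stricter, so these counts do not give how often a change in a member would be called. Gins4, for example, passed at 0.42. A member that did not pass may still differ. The number of arrays limits the precision.

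The members and gene lists were chosen with earlier results of these data known. Every member is given with its log2 fold change. Values on every array are given for the 2 largest and the smallest absolute log2 fold change in each step, and of the other genes up to 4 past the test per list and direction are named. Rrm2b, Dguok, Pole3, Pole4, Pold4 and the member values added to these were chosen after the values were seen. Listed genes without a probe set of their own were not analysed here. Promoters came from a RefSeq table with entries for all members but Gins1, Gins2, Gins4, Pole, Prim2 and Rfc2. Alternatives were a replicate block, quantile normalization, median centring, a filter on dim probe sets and a trended robust prior. Others were Student's t-test, other choices of probe set, a threshold of 0.1 and leaving out each array.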

Additional observations from a re-analysis of the deposited data

How the results depend on the processing

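The count of 22 members that rose stayed within 1.5 times of itself under quantile normalization (22), median centring (23), the trended robust prior (24), the filter on dim probe sets (22), the mean of all probe sets of a gene (24), probe sets of a single transcript (20) and an adjusted p under 0.1 (31), and 0 members fell under any alternative. The labels do not say whether the replicate numbers pair the arrays. Deviations of same-numbered arrays correlated at -0.004, 0.05 and 0.14, and not every array correlated best with its own number. With 3 arrays per genotype these correlations cannot exclude a pairing. A fit with the replicate block called 16 members higher, and 13 of the other pathway genes against 21. The share of all genes that rose is not given for this fit or the alternatives before it, so these counts lack that background. With Student's t-test 31 members were higher and 0 lower at an unadjusted p under 0.05, where 9.51% of all genes were higher and 10.6% lower. After Benjamini-Hochberg adjustment 0 members and 0 of the other genes passed in either direction, as was so for all 18193 genes. The paper names this test for comparisons of 2 groups in general, and for the arrays it gives only a filter on fold change. Leaving out probe sets shared by several transcripts, 11 of the other genes rose and 0 fell. With the mean of the probe sets of a gene the median log2 fold change of the members was 0.50. With 1 array left out in turn, members that rose numbered 4 to 22, other genes that rose 5 to 14 and other genes that fell 0 to 2, and the median log2 fold change of the members was 0.63 to 0.84. The sign turned for Orc4 (-0.0014 on probe sets of a single transcript), for Orc3 (-0.030 without Arid1a d/d replicate 1) and for Rrm2b (0.0060 with the mean of probe sets, and from -0.11 to 0.095 over the fits that leave out 1 array, above 0 when f/f replicate 3 or when d/d replicate 2 was left out), none of which passed the test. Of 864 refits of single named genes, 694 kept the direction and the call, 139 lost the call, 26 gained it and 5 turned sign. The cause of a lost call was not tested for any alternative. With 3 arrays per genotype and intensities near background for Tyms, Orc1 and Dscc1, smaller differences in these genes cannot be seen.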
